A study of Drosophila melanogaster with 28 samples.

Results

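The genes described are 7 transcription regulators of the Drosophila embryo, grouped here as endoderm and hindgut fate genes though their roles differ, as given below. They are forkhead (fkh), brachyenteron (byn), caudal (cad), serpent (srp), crocodile (croc), brother of odd with entrails limited (bowl) and drumstick (drm). They were chosen by name, and all 7 were found among the 16513 genes tested. The Rpb3 subunit of RNA polymerase II (Pol II) was immunoprecipitated from fixed whole embryos at stage 5 and the DNA was sequenced (ChIP-seq), at the time of zygotic genome activation (ZGA). Ctrl embryos had the genotype labelled t180, a control RNAi line. DomKD embryos had the genotype labelled t216, in which a short hairpin RNA against Domino was driven by a maternal germline Gal4. The hairpin acted in the mother's germline, so that the eggs were depleted of the maternal RNA for Domino, a remodeller that exchanges histone H2A for its variant H2A.Z in nucleosomes. There were 2 libraries per group, each from a collection of embryos. The other 24 of the 28 samples in the series, which hold other marks, inputs and an earlier stage, were not analysed here.

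The gut of the fly embryo begins as caps of cells at the anterior and posterior poles. There the receptor tyrosine kinase Torso signals through Ras and MAP kinase, lifts repression by Capicua and Groucho, and switches on the gap genes tailless (tll) and huckebein (hkb), which in turn act on the fate genes. fkh encodes the founding FoxA factor and is needed for foregut and hindgut, byn encodes the Brachyury T-box factor of the hindgut, and srp encodes the GATA factor of endoderm, fat body and blood. cad encodes the Cdx homeodomain factor of the posterior and is supplied both by the mother and by the zygote. croc encodes a FoxC factor of the anterior head and foregut. bowl and drm are odd-skipped family genes, and Drm protein frees Bowl protein from its inhibitor Lines during hindgut patterning. In pooled whole embryos, Pol II on a gene in more cells and more Pol II per cell cannot be told apart.

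Sequence at the annotated starts is shown for srp, bowl and cad, since Pol II density changed along these genes between the nested annotated transcripts. Each line gives 100 bases before the start and 30 from it, 5′ to 3′ on the gene's strand, in dm6 coordinates and read from the RefSeq assembly of the same release. Capitals mark exact matches on either strand to TAGteam (the site of the pioneer factor Zelda, searched as CAGGTAG and the related words CAGGCAG and also TAGGTAG and then CAGGTAA), to GAGAG (the GAGA factor element), to TATAAA, to TCAGT (the Initiator) and to TATCGATA (the DRE). Neighbouring or overlapping matches appear as 1 run of capitals.
srp, upstream start, chr3R:15986052-15986181, + strand: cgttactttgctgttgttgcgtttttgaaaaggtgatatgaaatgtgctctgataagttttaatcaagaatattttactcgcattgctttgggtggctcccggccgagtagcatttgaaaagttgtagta
srp, inner start, chr3R:15994040-15994169, + strand: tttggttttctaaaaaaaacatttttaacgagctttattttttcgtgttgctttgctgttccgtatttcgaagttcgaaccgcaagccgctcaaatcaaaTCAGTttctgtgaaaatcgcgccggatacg
bowl, first start, chr2L:3771600-3771729, + strand: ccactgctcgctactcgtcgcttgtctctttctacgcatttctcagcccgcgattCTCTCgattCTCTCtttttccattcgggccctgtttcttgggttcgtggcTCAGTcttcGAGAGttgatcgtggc
cad, first start, chr2L:20770631-20770760, + strand: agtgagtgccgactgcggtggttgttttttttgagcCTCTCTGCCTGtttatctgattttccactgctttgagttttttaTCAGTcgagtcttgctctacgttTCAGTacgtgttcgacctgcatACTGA
cad, second start, chr2L:20770794-20770923, + strand: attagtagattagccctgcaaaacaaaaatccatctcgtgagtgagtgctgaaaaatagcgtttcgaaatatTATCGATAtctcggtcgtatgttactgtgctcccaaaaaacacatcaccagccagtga

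The upstream srp start held none of these motifs in the stretch shown, whereas the inner srp start had TCAGT beginning at position 1, the annotated start base itself. At the first bowl start TCAGT began at position 6, with CTCTC, the reverse complement of GAGAG, at positions -45 and -36. The first cad start had TCAGT at positions -20 and 4 and a reverse-strand CAGGCAG at position -60 that overlaps a reverse-strand GAGAG at -64. The second cad start, 163 nt downstream, had a DRE match at position -28. From -250 to 50 around the start of the tested span, TAGteam matches were found in 3 of the 7 genes (byn, cad and drm) and in 8.14% of 16494 promoters. GAGAG was found in 4 of 7 against 29.7%, TCAGT in 4 of 7 against 50.6%, TATAAA in 1 of 7 against 44.1%, and the DRE in 0 of 7 against 8.02%. These counts depend on the start used, and srp was scored at its upstream start, where Pol II density was near background. In the same window, the inner srp start had GAGAG at positions -138, -132 and -130 besides its TCAGT. The inner fkh start had TCAGT at position 28, and the second cad start had the DRE. By contrast, the inner drm start had TCAGT but no TAGteam or GAGAG match. The bowl start farthest downstream had a TAGteam word, CAGGCAG on the opposite strand at position -244, and TCAGT at positions -102 and -2. The croc start had TCAGT on its own strand at positions -16 and -2. All of these are letter matches in a window and were not tested as binding sites. The drm TAGteam match was CAGGTAG on the gene's own strand at position -225. The byn TAGteam match was CAGGTAA on the opposite strand at position -244.

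All 7 genes were occupied, that is, their mean read density was at least 2 times the background density of the libraries. With the median density of the same genes as background the folds were lower, and in Ctrl drm went from 2.18 to 1.21 times, under that limit, and bowl from 3.62 to 2.01. Density here means reads per kb of span after scaling to the library total (CPM per kb), and the background is its most frequent value over genes longer than 2000 nt. Averaged over the 4 libraries, the density was 10.7 times the background for croc, 8.70 for cad, 8.59 for fkh, 5.04 for byn, 4.40 for srp, 3.17 for bowl and 2.14 for drm. Among all tested genes croc stood at the 97.0 percentile of density and drm at the 66.3 percentile, and 36.1% of tested genes were occupied. Within a library the order was croc, cad, fkh, byn, srp, bowl, drm in both Ctrl libraries and in DomKD replicate 2. In DomKD replicate 1 it differed in that fkh stood above cad. In croc, fkh and cad 83.1% or more of the reads lay above the background in every library, whereas for drm this share was 52.6% and 55.5% in Ctrl replicates 1 and 2, 63.8% in DomKD replicate 1 and 41.1% in DomKD replicate 2.

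**Figure D1:**
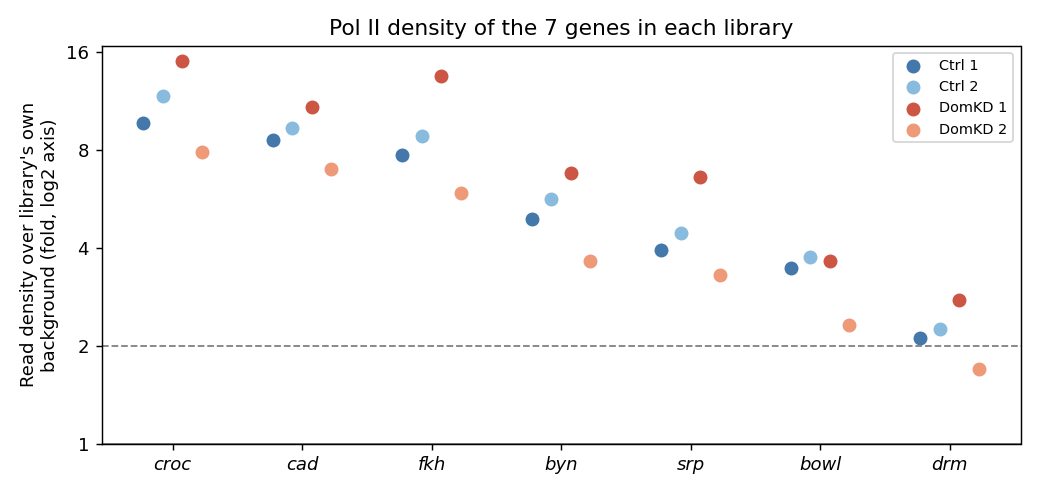
Read density of each gene divided by the background density of the same library (vertical axis, fold on a log2 scale), with 1 point per library and genes ordered by mean density. The dashed line marks 2 times background, and DomKD replicate 2 is the lowest point for all 7 genes, with drm at 1.70.

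The libraries differed in background. In CPM per kb it was 4.64 and 4.23 in Ctrl replicates 1 and 2, 4.41 in DomKD replicate 1 and 7.04 in DomKD replicate 2, and the estimated share of gene reads above background was 53.2%, 57.4%, 55.6% and 29.1%. Counts over 1 transcript per gene summed to between 8326382 and 12022604 per library. Relative to its own background, DomKD replicate 2 had the lowest density of the 4 libraries for all 7 genes, as it did for 98.2% of the 5961 occupied genes. DomKD replicate 1 had the highest density for 6 of the 7, all but bowl, against 18.9% of the occupied genes. On this scale the DomKD libraries lay on opposite sides of the Ctrl pair for those 6 genes. The dom gene itself had 617 and 664 CPM in Ctrl and 599 and 371 CPM in DomKD (log2 fold change -0.40, SE 0.26, adjusted p = 0.267), and Pol II on dom is no check of a hairpin that acts on maternal RNA. The 8 markers of stage 5 embryos were all occupied (4.87 to 110 times background) and summed to 4275 and 4321 CPM in Ctrl and to 7016 and 3938 CPM in DomKD. Of the 8 markers of later tissues only elav and repo were occupied, at 3.21 and 3.25 times background, and the muscle genes Mhc and Mf were at 0.925 and 0.724. The later markers summed to 598 and 642 CPM in Ctrl and to 624 and 623 CPM in DomKD. The stage 5 sum is mostly slam, but 7 of the 8 markers were highest in DomKD replicate 1, and nullo was lowest there, at 16.7 CPM against 21.4 and 20.8 CPM in Ctrl. In CPM the 7 fate genes were highest in DomKD replicate 1 too. In DomKD replicate 2 the marker sum was below both Ctrl libraries. The 7 fate genes summed to 1710 CPM in that library, against 1529 and 1579 CPM in Ctrl. The part that staging, background or DomKD replicate 1 has in the values below was not tested.

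The comparison of DomKD with Ctrl asks whether Pol II on these genes depends on Domino. In edgeR's likelihood ratio test over all genes, with trimmed mean of M values (TMM) scaling, none of the 7 passed an adjusted p of 0.05, where 2.46% of all tested genes were called higher and 12.7% lower in DomKD. Of the 5961 occupied genes, 56 were called higher and 1826 lower. All 7 fitted values were above 0, with log2 fold changes (DomKD over Ctrl) from 0.06 for bowl to 0.55 for srp and a median of 0.37. Over all tested genes 54.7% were above 0 and the median was 0.07, and the median over occupied genes was -0.40. Of the 5061 genes whose density lay within the range of the 7, 17.6% had a value above 0 and the median was -0.44. At an unadjusted p under 0.05, 2 of the 7 (fkh and srp) were higher, as were 10.8% of all genes, and DESeq2 called 0 of the 7 after adjustment. For 5 of the 7 both DomKD libraries lay above both Ctrl libraries in CPM, while byn and bowl overlapped between the groups. CPM includes background reads, and the background was highest in DomKD replicate 2 (7.04 CPM per kb). Relative to its own background that library was the lowest for all 7 genes, so this separation holds for CPM only. Both DomKD libraries lay above in 30.8% of all tested genes, 7.63% of occupied genes and 7.09% of genes in the density range of the 7.

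The endoderm factor srp (FBgn0003507, chr3R:15986152-16004081, + strand) had 321 and 336 CPM in Ctrl replicates 1 and 2 and 583 and 382 CPM in DomKD replicates 1 and 2. The groups did not overlap, and DomKD replicate 1 stood far above the other 3 libraries. Ctrl averaged 329 ± 10.5 CPM and DomKD 482 ± 142 CPM (SD, n = 2). The log2 fold change was 0.55 (SE 0.25, adjusted p = 0.111). Leaving out DomKD replicate 1, the value was 0.21. Leaving out DomKD replicate 2, it was 0.82. With 1 DomKD library left, the spread in such a fit comes from the Ctrl pair only.

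fkh (FBgn0000659, chr3R:28580976-28585264, - strand), the FoxA gene of foregut and hindgut, had 151 and 159 CPM in Ctrl and 285 and 164 CPM in DomKD. DomKD replicate 2 was thus only 0.08 above the Ctrl mean on the log2 scale, and DomKD replicate 1 was 0.88 above it. The log2 fold change was 0.53 (SE 0.25, adjusted p = 0.126, 95% interval 0.04 to 1.03 from the SE). Without DomKD replicate 2 it was 0.87 and without DomKD replicate 1 it was 0.08.

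The hindgut T-box gene byn (FBgn0011723, chr3L:11927693-11935919, + strand) had 184 and 196 CPM in Ctrl and 277 and 194 CPM in DomKD. Its DomKD replicate 2 value lay between the Ctrl values, so the groups overlapped. The log2 fold change was 0.31 (SE 0.24, adjusted p = 0.347). byn lies within the span of CG44837 on the opposite strand, and since strand was ignored in the counting its reads were also added to CG44837, which had a log2 fold change of 0.36 (adjusted p = 0.276) at 1.47 times background.

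The Cdx gene cad (FBgn0000251, chr2L:20770731-20783135, + strand) had the highest counts of the 7, with 485 and 488 CPM in Ctrl and 663 and 563 CPM in DomKD. Both DomKD libraries lay above the Ctrl pair, whose values had an SD of 2.47 CPM. The log2 fold change was 0.33 (SE 0.24, adjusted p = 0.322). In DomKD replicate 2 cad was 0.21 above the Ctrl mean on the log2 scale, as was drm, and srp was 0.22 above. Dropping DomKD replicate 1 from the fit lowered the cad log2 fold change to 0.21, and dropping replicate 2 instead raised it to 0.43. Both fits keep only 1 DomKD library and take their spread from the close Ctrl pair, so only these sizes are given.

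croc (FBgn0014143, chr3L:21474133-21476479, - strand), the FoxC gene, had 103 and 116 CPM in Ctrl and 174 and 120 CPM in DomKD. DomKD replicate 2 was just above Ctrl replicate 2, so that the groups nearly touched without overlapping. The log2 fold change was 0.42 (SE 0.23, adjusted p = 0.198).

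The odd-skipped family members differed from each other. drm (FBgn0024244, chr2L:3539247-3548423, + strand) had 88.1 and 86.6 CPM in Ctrl and 124.9 and 101 CPM in DomKD, with no overlap in CPM. Its log2 fold change was 0.37 (SE 0.22, adjusted p = 0.227). Relative to each library's background, drm was at 2.11 and 2.25 times in Ctrl and at 2.76 and 1.70 times in DomKD. bowl (FBgn0004893, chr2L:3771700-3784121, + strand) had 196 CPM in both Ctrl libraries and 223 and 186 CPM in DomKD, on either side of the Ctrl pair. Its log2 fold change was 0.06 (SE 0.22, adjusted p = 0.861, 95% interval -0.38 to 0.50), and it was below 0 when TMM was taken on early zygotic genes (-0.22) or without DomKD replicate 1 (-0.078).

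**Figure D2:**
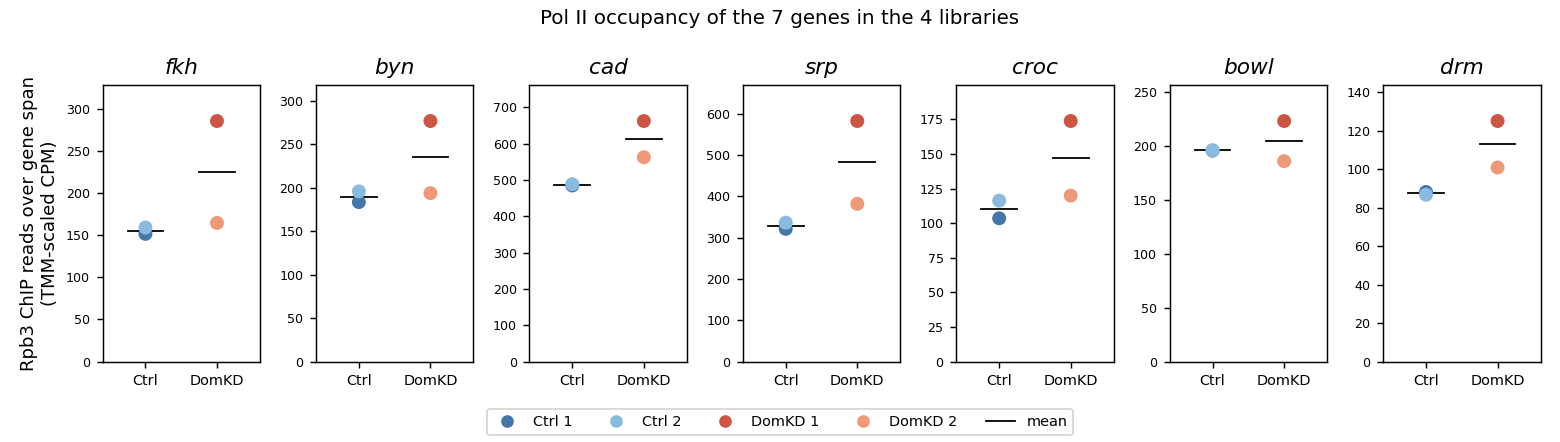
Rpb3 ChIP reads over each gene's span in TMM-scaled CPM (vertical axes start at 0), with 1 point per library and a bar at the mean of the 2 libraries of a group. DomKD replicate 1 is above both Ctrl libraries in all 7 genes, while DomKD replicate 2 lies between 0.08 below (bowl) and 0.22 above (srp) the Ctrl mean on the log2 scale.

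Against the Ctrl mean, DomKD replicate 1 had a median log2 difference of 0.55 over the 7 genes, against 0.01 over all tested genes and -0.22 over occupied genes. In DomKD replicate 2 the medians were 0.13, 0.05 and -0.60. DomKD replicate 1 was above both Ctrl libraries in 7 of 7 genes, in 41.6% of all tested genes and in 28.9% of occupied genes. DomKD replicate 2 was above both in 5 of 7, in 47.3% of all tested genes and in 8.09% of occupied genes. The distance between the median of the 7 and the median of all genes was 0.30 in the fit of all libraries, 0.54 without DomKD replicate 2 and 0.08 without DomKD replicate 1.

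The calls depended on which genes were taken as unchanged. TMM factors from the occupied genes alone moved the median of all genes to 0.49, and 6 of the 7 were then called higher, as were 18.1% of all genes, with log2 fold changes from 0.69 (byn) to 0.93 (srp), while bowl was at 0.46 (adjusted p = 0.0915). With TMM on a list of 67 early zygotic genes the median of all genes moved to -0.18 and no member was called, with fkh at 0.20, srp at 0.24, byn at 0.01 and bowl at -0.22. Relative to the median of all genes, the median of the 7 stood 0.28 higher under the first of these scalings and 0.27 higher under the second. A change of scaling shifts every gene by nearly the same amount, so this distance could hardly change and is no check of the scaling. The share of all called genes that were lower in DomKD was 83.7% with TMM on all genes, 8.44% with TMM on occupied genes, 99.8% with TMM on early zygotic genes and 94.5% with library size alone. A fit without 1 DomKD library takes its spread from the Ctrl pair only, so its calls do not reflect how DomKD libraries vary. Without DomKD replicate 2, 6 of the 7 were called higher (bowl had adjusted p = 0.0615), where 11.3% of all genes were. Without DomKD replicate 1 only cad and srp were, which is close to the 21.9% of all genes called higher in that fit, and with either Ctrl library left out none was.

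**Figure D3:**
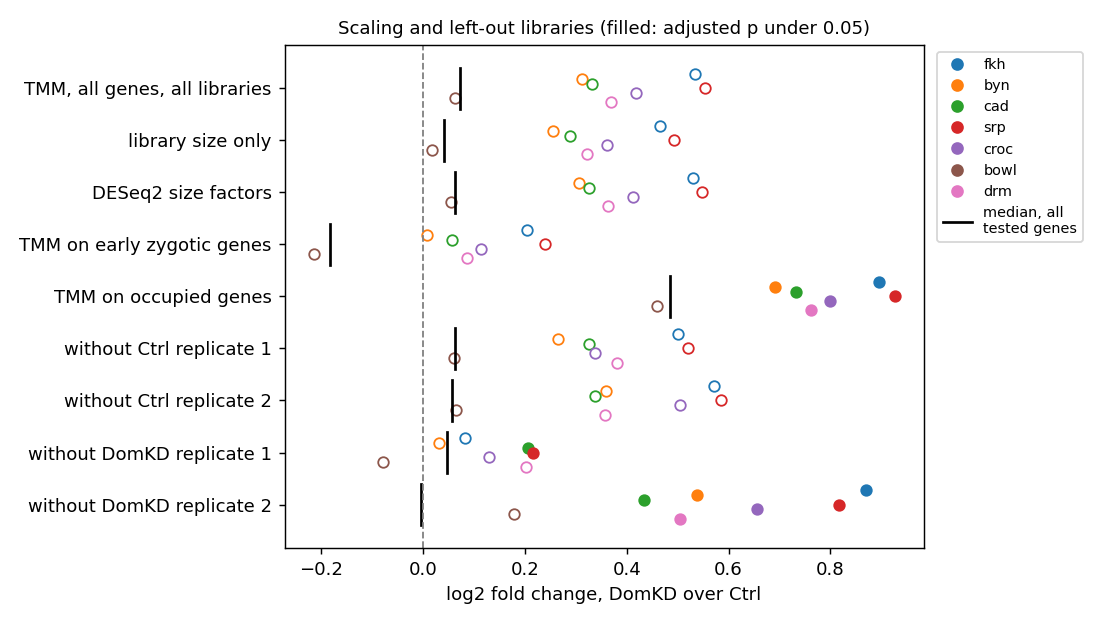
Log2 fold change of each gene (horizontal axis, DomKD over Ctrl) under 5 scalings and with each library left out (vertical axis), where filled points have an adjusted p under 0.05 and black bars are the median of all tested genes. The 6 genes other than bowl are filled under TMM on occupied genes and without DomKD replicate 2, and bowl is open in every setting drawn.

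The nested transcripts allowed reads to be placed within a gene, as those in a longer span that were not counted in the next shorter one. Reads that cross a boundary stay with the inner span. In srp the outer 6282 nt and the next 1706 nt were near background in all libraries (0.94 to 1.46 times), and the innermost 9942 nt, which begin at the start with TCAGT at position 1, held 86.7%, 88.1%, 90.3% and 84.3% of the reads in Ctrl 1, Ctrl 2, DomKD 1 and DomKD 2. The density there was 6.16 and 7.09 times background in Ctrl and 10.7 and 5.01 times in DomKD. Pol II on srp thus lay downstream of the inner start. In CPM the log2 ratio of the DomKD mean to the Ctrl mean was 0.56 in the innermost 9942 nt. It was 0.57 in the outer 6282 nt, near background, and 0.19 in the next 1706 nt. DomKD replicate 2 was 0.64 above the Ctrl mean in the outer 6282 nt and 0.16 above it in the innermost part. The rise over the whole srp span in that library thus also holds reads from near-background sequence. The lncRNA:CR44133, which overlaps the outer part of srp, was at 1.25 times background with a log2 fold change of 0.51 (adjusted p = 0.0714).

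bowl showed the reverse layout, with reads heaped at its first start. The first 220 nt, 1.77% of the span, held 34.5% and 38.1% of the reads in Ctrl and 32.8% and 33.3% in DomKD. Their density was 67.5 and 80.8 times background in Ctrl and 67.6 and 43.5 times in DomKD, and the next 106 nt were at 17.8 to 41.7 times. The 6912 nt that follow lay at 1.20 to 1.90 times. The CPM of the first 220 nt differed by -0.07 on the log2 scale between the group means, and that of the innermost 5184 nt by 0.17. Relative to background, the innermost part was at 2.42 and 2.37 times in Ctrl and at 2.49 and 1.74 times in DomKD. The 0.17 is thus a difference in CPM, background included.

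In cad the first 163 nt had 32.2 and 40.8 times background in Ctrl and 34.1 and 20.3 times in DomKD, against 8.28 and 8.95, and 10.5 and 6.84 times, in the remaining 12242 nt. The log2 ratio of the DomKD mean to the Ctrl mean was -0.09 in the first 163 nt of cad and 0.35 in the rest. In fkh the group means were higher in DomKD in each part, with log2 ratios of 0.38 in the 152 nt at the 5′ end and 107 nt at the 3′ end, 0.88 in the next 750 nt at the 3′ end and 0.52 in the innermost 3280 nt. The 750 nt at the 3′ end were at 3.34 and 4.17 times background in Ctrl and at 8.25 and 3.03 times in DomKD, so the ratio rested on DomKD replicate 1. drm had no such heap, with 1.80 to 3.58 times background in its outer 828 nt and 1.69 to 2.68 times in its inner 8349 nt. byn and croc have 1 annotated span each. No part was tested on its own.

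**Figure D4:**
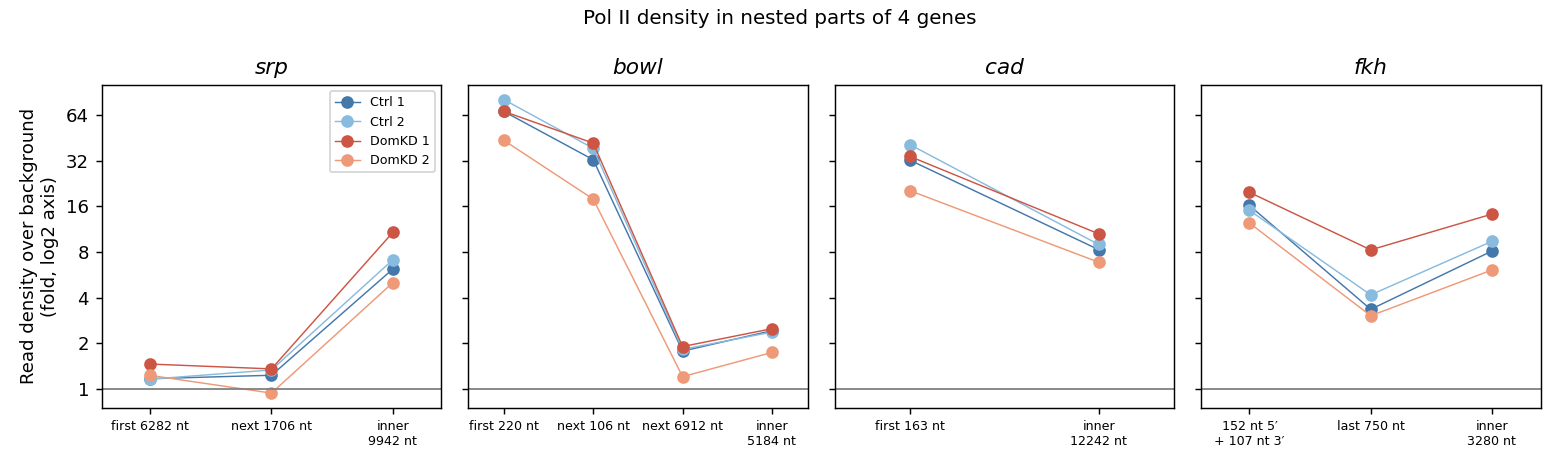
Read density over the library's own background (vertical axis, fold on a log2 scale) in nested parts of 4 genes, with 1 line per library, parts ordered from the outermost to the innermost. srp is near 1 outside its inner 9942 nt, bowl goes from 43.5 to 80.8 in its first 220 nt to 1.74 to 2.49 in its innermost 5184 nt, and the fkh axis places 5′ and 3′ parts together.

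Counting by transcript gave no call for these genes either. Of 33659 transcripts tested, 5498 were called, and none of the 27 annotated transcripts of the 7 genes was among them. These 27 have 16 different spans. The shortest bowl transcript, which leaves out the promoter heap, had a log2 fold change of 0.16 (adjusted p = 0.545) against 0.06 for the full span. Its reads lay at only 1.74 to 2.49 times background, so background makes up much of its CPM.

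Of the 16 nearest or overlapping tested genes, 1 passed, where 15.1% of all genes were called in either direction: lncRNA:CR43126, 784 nt from fkh, which was higher in DomKD by 0.66 on the log2 scale (SE 0.20, adjusted p = 0.0138) at 1.64 times background, under the occupancy limit. Near srp, Hel89B was at 0.01 (adjusted p = 0.977) and lncRNA:CR42839, 240 nt away, at 0.35 (adjusted p = 0.212). The neighbours of cad, dia and Pomp, were at -0.13 and -0.06 (adjusted p = 0.689 and 0.862) although both were occupied, at 4.02 and 4.62 times background. Beside croc, Neu2 was at 0.33 (adjusted p = 0.342, 12.1 times background) and Syx7 at 0.02 (adjusted p = 0.955). Beside byn, SdhAL was at 0.53 and Rpt4R at 0.48 (adjusted p = 0.0677 and 0.219), and mIF2 on the far side of fkh was at 0.25 (adjusted p = 0.376). The bowl and drm neighbours lncRNA:CR43704, CG31960, lncRNA:CR44308 and lncRNA:CR44309 were at -0.66, 0.48, 1.04 and 0.61 with adjusted p of 0.0930 or more. None of these neighbours of byn, fkh, bowl and drm was occupied, with densities from 0.83 (lncRNA:CR44308) to 1.89 (lncRNA:CR43704) times background. The largest value, that of lncRNA:CR44308, rested on 1.55 and 1.07 CPM in Ctrl and 2.15 and 3.38 CPM in DomKD.

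Upstream of the fate genes stands the terminal system. Of the 18 terminal system genes tested, 4 were called lower, where 12.7% of all genes were, and 0 higher, and the median was -0.03. Of the 18, 13 were occupied, among them these 4, and of all 5961 occupied genes 1826 were called lower. The 4 were ksr, a scaffold of the kinase cascade (-0.84, SE 0.23, adjusted p = 0.00469), clos, an eggshell component needed for Torso signalling (-0.70, adjusted p = 0.0207), gro, the Groucho corepressor (-0.67, adjusted p = 0.0391), and Dsor1, the MAP kinase kinase (-0.58, adjusted p = 0.0439). The gap genes tll and hkb, the highest of the list at 17.1 and 16.9 times background, were at 0.32 (adjusted p = 0.359) and 0.12 (adjusted p = 0.738). tll had 161 and 166 CPM in Ctrl and 254 and 153 CPM in DomKD, and hkb 135 and 135 CPM against 181 and 113 CPM. Both thus had the DomKD libraries on opposite sides of the Ctrl pair.

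Among relatives of the 7, 1 gene passed the test. For the counts below, 31.0% of all tested genes had an unadjusted p under 0.05 in either direction and 54.7% had a value above 0. Of occupied genes 21.6% were above 0, so genes under the occupancy limit were above 0 more often than all genes. The lists below mix both kinds. Occupied were 7 of the 17 forkhead box genes, 8 of the 17 later gut genes and 10 of the 13 odd-skipped, T-box and lin genes. Doc2, a Dorsocross T-box gene of the dorsal embryo, was higher in DomKD (0.72, SE 0.22, adjusted p = 0.0141), with 65.8 and 67.7 CPM in Ctrl and 124.7 and 94.4 CPM in DomKD at 2.62 times background. It was the only call on the list of 13 genes (odd-skipped and T-box genes and lin), of which 12 were above 0 with a median of 0.37, and 2.46% of all genes were called higher. Doc1 was at 0.42 (adjusted p = 0.203) and the pair-rule gene odd, at 31.9 times background, was at 0.33 (adjusted p = 0.368). lin, which encodes the Bowl inhibitor Lines and is named here after its value was seen, was the member of that list below 0, at -0.38 (adjusted p = 0.215). The 6 genes of the GATA list had a median of 0.46 with 0 called and 4 at an unadjusted p under 0.05, though apart from srp the only occupied one was GATAd, at 2.41 times background and -0.21 (adjusted p = 0.477). In the forkhead box family 15 of 17 genes were above 0 with a median of 0.34 and 0 called (4 at an unadjusted p under 0.05), and the densest, slp1 and jumu, were at 0.15 (adjusted p = 0.659) and 0.36 (adjusted p = 0.336). Of the genes used later in the gut, 17 of 17 tested were above 0 (median 0.33, 0 called and 3 at an unadjusted p under 0.05), with hb at 35.95 times background and 0.24 (adjusted p = 0.519) and retn at 16.4 times and 0.33 (adjusted p = 0.386). The stage 5 markers had 7 of 8 above 0, a median of 0.30 and 0 called (0 at an unadjusted p under 0.05), with slam at 110 times background and 0.34 (adjusted p = 0.391) and bnk at 62.1 times and 0.28 (adjusted p = 0.441). The later tissue markers had 6 of 8 above 0 with a median of 0.21 and 0 called (2 at an unadjusted p under 0.05), with elav at -0.42 (adjusted p = 0.198) and repo at 0.16 (adjusted p = 0.587). All of these signs are those of TMM on all genes, whose median was 0.07, and they move with the scaling as given above.

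**Figure D5:**
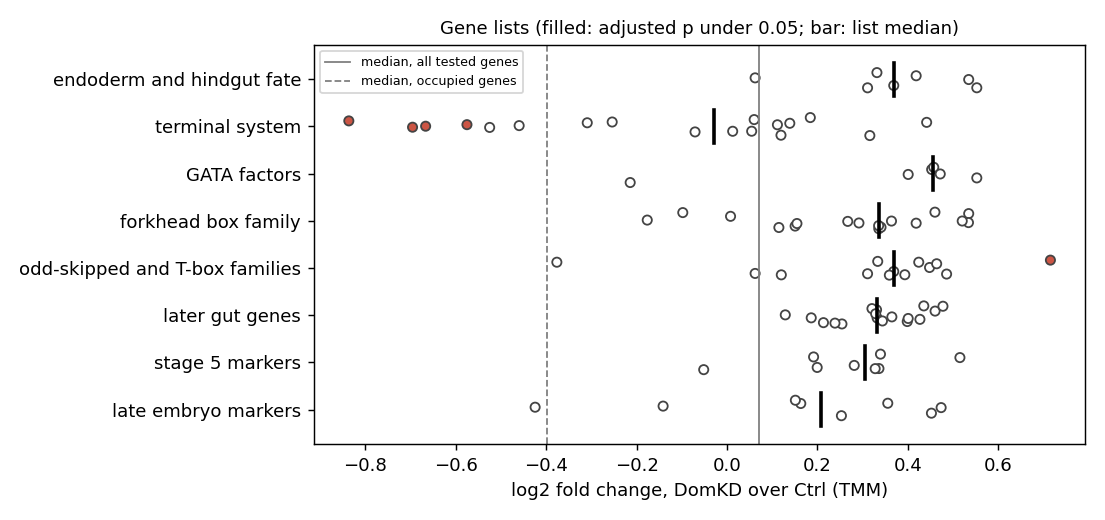
Log2 fold change, DomKD over Ctrl with TMM on all genes (horizontal axis), of each gene in 8 lists, where filled points have an adjusted p under 0.05 and bars mark list medians. The solid and dashed lines are the medians of all tested (0.07) and occupied (-0.40) genes, and the filled points are 4 terminal system genes below 0 and Doc2 above 0.

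Across the 4 libraries the centred log2 CPM profile of the 7 genes had a median of -0.19 and -0.16 in Ctrl and 0.40 and -0.07 in DomKD. byn was nearest to this median, at a Euclidean distance of 0.074, and bowl farthest, at 0.32. Of 5954 other occupied genes, those nearest to the median profile were Traf4 (distance 0.032), PAPLA1 (0.037) and Trim9 (0.042), with log2 fold changes of 0.38, 0.39 and 0.40. With 4 libraries a likeness of this kind describes these libraries only.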

How the data were processed

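Rpb3 ChIP-seq was analysed in 4 libraries of stage 5 embryos, grouped by title. The deposited table holds raw read counts per transcript: the authors mapped reads to dm6 with snakePipes, removed duplicates, and counted reads over whole transcript spans with featureCounts, ignoring strand and adding a read to every transcript it overlapped, so that nested genes share reads and promoter and body reads are mixed. No input was subtracted. Transcript identifiers of the BDGP6 annotation (dm6 coordinates) covered 34516 of 34793 transcripts, 34413 of them with the same span.

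Each gene was represented by its transcript of highest mean count. Spans under 125 nt or with 10 or fewer reads in all were left out, and the rest were tested with edgeR 4.0.16 (R 4.3.3; likelihood ratio test, TMM, Benjamini-Hochberg at 0.05, no replicate block), with the study's filters. Unlike the study, which fitted all transcripts, scaled on a Zelda target list and kept the most significant transcript per promoter, the main test here used 1 transcript per gene and TMM on all genes. Background was the mode of log2 density (kernel bandwidth 0.1). Replicates are described as biologically independent, and an exact test of 2 against 2 cannot go below p = 0.333. The test was checked before use on simulated counts with the same dispersion for every gene and no difference in background between libraries. That check therefore does not cover the background and scaling differences of these libraries. Named genes were the 7 genes, called genes and the 2 densest of each list, neighbours, and the 3 likest profiles. Outside that rule, dom, nullo, Mhc, Mf and lin are named as checks or after their values were seen. The genes and lists were chosen with earlier results of these data known. Of the later gut list 1 gene, upd2, was not tested. Alternatives included DESeq2 1.42.0, other scalings, filters, spans and leaving out each library.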

Additional observations from a re-analysis of the deposited data

How the results depend on the processing

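Of the 7 genes, 6 kept a log2 fold change above 0 under every alternative run. bowl reversed to -0.22 with TMM on early zygotic genes and to -0.078 without DomKD replicate 1 (range over left-out libraries -0.078 to 0.18). The count of members called was 0 except with TMM on occupied genes, where it was 6, and when a DomKD library was left out (range over left-out libraries 0 to 6). The genes called, 2498 with all libraries, numbered 1155 by DESeq2, 1215 at an adjusted p under 0.01 and 449 past a log2 fold change of 1 in size, and ranged from 137 to 8825 with 1 library left out. The transcripts called, 5498, numbered 8417 with TMM on occupied genes, 2564 by DESeq2, 2854 at an adjusted p under 0.01 and 736 past a log2 fold change of 1 in size, and ranged from 318 to 20878. A left-out library leaves a group of 1, which is then assumed to vary like the other group, and the Ctrl pair was the closer one. With the replicate number as a block, 1858 genes, 4221 transcripts and 0 members were called. Same-numbered libraries did not deviate together (r = -0.23 over 10703 genes, 2 pairs), and they share only a number. With the numbers crossed, chosen after seeing the data, 3413 genes and 7517 transcripts were called. With the median density in place of the mode as background, the Ctrl density of croc went from 10.7 to 5.94 times background and that of drm from 2.18 to 1.21. The cause of these changes was not tested. With 2 libraries per group the SE of the 7 log2 fold changes was 0.22 to 0.25, which limits the size of difference that can be called.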
